A study of Rattus norvegicus with 14 samples.

Results

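The 1027 regions described here were the methyl-CpG captured regions whose tag counts varied least between healthy control rats. They were taken from 51382 candidate regions, those on chromosomes 1 to 20 with 500 to 2000 tags summed over all 14 animals, out of 310070 regions in the whole table. For each candidate, normalised tag counts (CPM, tags divided by the animal's total over all regions and multiplied by 1000000) were put on a scale of log2(CPM + 0.5), and the standard deviation (SD) over the 5 control animals was taken. The lowest 2 % by this SD were chosen. Low control spread is therefore what selected these regions and is not a result, whereas the spread in the epileptic animals took no part in the choice.

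In mammalian DNA, cytosine methylation sits mostly on CpG dinucleotides, where it is copied onto the new strand after replication by maintenance methyltransferases and can be lost passively or through oxidation by TET enzymes. Proteins with a methyl-CpG binding domain recognise the mark, and the same kind of domain was used here to pull methylated fragments out of sheared genomic DNA. The number of tags in a region rises with the number of methylated CpGs it holds, so a tag count is a relative measure of methylated DNA and not a percentage of methylation. In adult hippocampus, methylation differs between neurons and glia. In pieces of whole tissue, a change in the mix of cells and a change of methylation within a cell type cannot be told apart.

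All 14 animals were male Wistar rats, and dorsal hippocampus was taken after an observation period of 84 days. Healthy controls (CTRL, n = 5) were injected with saline after methyl scopolamine and ate standard chow. The epileptic group (PILO, n = 4) received methyl scopolamine and then the muscarinic agonist pilocarpine (340 mg/kg, intraperitoneal) to induce status epilepticus, also on standard chow. The third group (PILO + KD, n = 5) had pilocarpine in the same way and was fed a ketogenic diet, which is rich in fat and poor in carbohydrate. Diazepam ended the status epilepticus in the pilocarpine protocol and was not part of the control injections. Each animal gave 1 library, made from 500 ng of DNA and not pooled, so the spread between samples is spread between single animals plus technical error. No healthy group on the ketogenic diet is among the samples, so an effect of the diet alone cannot be told apart from its effect in epileptic animals.

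Total tags ranged from 6972700 in PILO 4 to 12391666 in PILO 3, where the number after the group is the animal's label, and controls held between 8411986 and 10559592. Libraries came from 4 flow cells, of which FC101 held 8 and FC104 only PILO + KD 4. PILO + KD 1 and PILO + KD 4 stood apart from the other ketogenic diet libraries, with the lowest trimmed-mean scaling factors of all 14 (0.896 and 0.930). The median SD and the mean variance index in that group are therefore also given without them. Other results on spread in that group include both. Every region entered the deposited table because at least 1 pair of samples differed there in the authors' peak comparison, so regions alike in all samples are under-represented.

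The stable control regions held 0.888 % of all tags. Their median was 1075 tags over the 14 animals, against 856 in the other candidates. They were also slightly longer, with a median of 1025 bp against 954 bp, and denser, with 1037 against 924 tags per kb. In single control animals a member held between 28 and 178 tags, with medians of 71 to 88. Selection rose with depth, from 1.22 % of candidates with 500 to 749 tags to 2.95 % of those with 1500 to 2000 tags. Between chromosomes the chosen share of candidates ran from 1.18 % on chromosome 12 (22 of 1857) to 2.42 % on chromosome 13.

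The neighbours of stable control regions were then examined. Of the 1027, 475 (46.3 %) had another candidate within 10000 bp, close to the 45.3 % of other candidates. That nearest candidate was itself a stable control region in 5 cases (1.05 %), compared with 2.00 % for other candidates. Within 100000 bp the shares were close, with 19 of 997 (1.91 %) against 2.04 %. For the 97 members with a candidate within 1000 bp, the neighbour was a member in 0 cases, and the neighbours' median rank by control SD was 47.0 %, where 50 % is the middle of all candidates.

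The median control SD was 0.0647 at the stable regions and 0.225 at the other candidates. The most even region, chr5:13712968-13714066 in the RN4 rat assembly (1099 bp), had 9.38, 9.47, 9.44, 9.63 and 9.39 CPM in the 5 controls, an SD of 0.0146. These stood for 99, 91, 80, 81 and 90 tags, so that unequal depth, and not equal counts, lay behind equal CPM. The next most even were chr14:104458857-104459619, with 6.06 to 6.26 CPM in controls, and chr9:61625142-61625815, with 5.07 to 5.22 CPM. At the edge of the selection, the last region inside was chr15:19204969-19206321 and the first outside was chr4:66956256-66957073, both with an SD of 0.0774.

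Counting error alone set a floor well above these values. For independent tags, the Poisson error at the counts of the stable regions had a median SD of 0.154 in CTRL. All 1027 regions lay below their own counting error in CTRL, against 23.0 % of other candidates. A variance index, the variance between animals divided by that of Poisson counting, had a median of 0.159 at the members and reached 0.456 at most, where 1 means counting error only. A ranking on 5 values picks low draws of counting error together with low spread between animals, and these cannot be told apart region by region within CTRL.

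In PILO, the same regions had a median SD of 0.203 (quartiles 0.150 and 0.268), and in PILO + KD of 0.248 (quartiles 0.187 and 0.302). The other candidates had 0.232 and 0.288. The ratio of members to other candidates was thus 0.287 in the controls that made the choice, 0.875 in PILO and 0.860 in PILO + KD. The median counting error at the members was 0.163 in PILO and 0.155 in PILO + KD. The SD fell below counting error at 325 members in PILO (31.6 %, against 28.6 % of other candidates) and at 135 in PILO + KD (13.1 %, against 9.83 %).

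**Figure D1:**
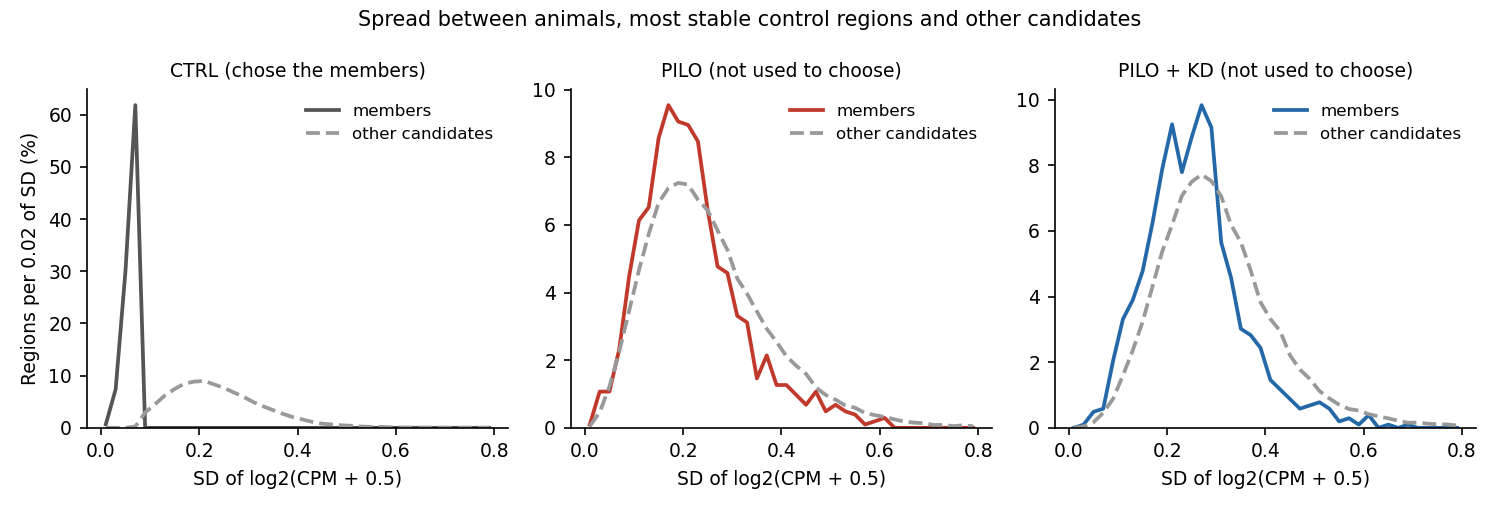
Share of regions (%, per 0.02 of SD) against the SD of log2(CPM + 0.5) between animals, for the 1027 stable control regions (solid) and the other candidates (dashed), in CTRL (n = 5), PILO (n = 4) and PILO + KD (n = 5). The CTRL curves are separate because CTRL chose the regions. In the other groups the curves overlap for the most part, with the members shifted to lower SD. Medians were 0.203 against 0.232 in PILO and 0.248 against 0.288 in PILO + KD.

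Once counting error was taken off, what remained was smaller at the stable regions than elsewhere. The root of the mean excess variance was 0.173 in PILO against 0.226 at the other candidates, and 0.221 in PILO + KD against 0.283. On the variance index, means were 2.08 against 2.48 in PILO and 2.85 against 3.82 in PILO + KD. The difference was also present at similar depth. Within each of 4 tag classes the members had the lower median SD in both groups. With 500 to 749 tags, the values were 0.239 against 0.268 in PILO and 0.286 against 0.316 in PILO + KD. With 1500 to 2000 tags, they were 0.176 against 0.185 and 0.209 against 0.251.

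The relation between control spread and spread in the other groups was examined over 50 classes of candidates ordered by control SD, with 1027 regions in each but the last, which held 1059. From class 1 (the stable regions) to class 12, median control SD rose from 0.0647 to 0.160, whereas PILO stood at 0.203 in both and PILO + KD went from 0.248 to 0.258. At class 25 PILO was at 0.213 and PILO + KD at 0.280. A steep rise was seen only at the unstable end, with 0.383 and 0.428 in the last class, where controls had 0.544. The mean variance index likewise set class 1 little apart from the classes after it. In PILO it was 2.08, 2.10, 2.02 and 1.96 in classes 1 to 4, and 7.03 in the last. In PILO + KD it was 2.85, 2.92, 2.87 and 2.89, and 8.43 in the last. Across all 51382 candidates the rank correlation (Spearman) of SDs was 0.23 between CTRL and PILO, 0.29 between CTRL and PILO + KD and 0.25 between PILO and PILO + KD. These describe regions that share libraries and depth, and they carry no test.

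**Figure D2:**
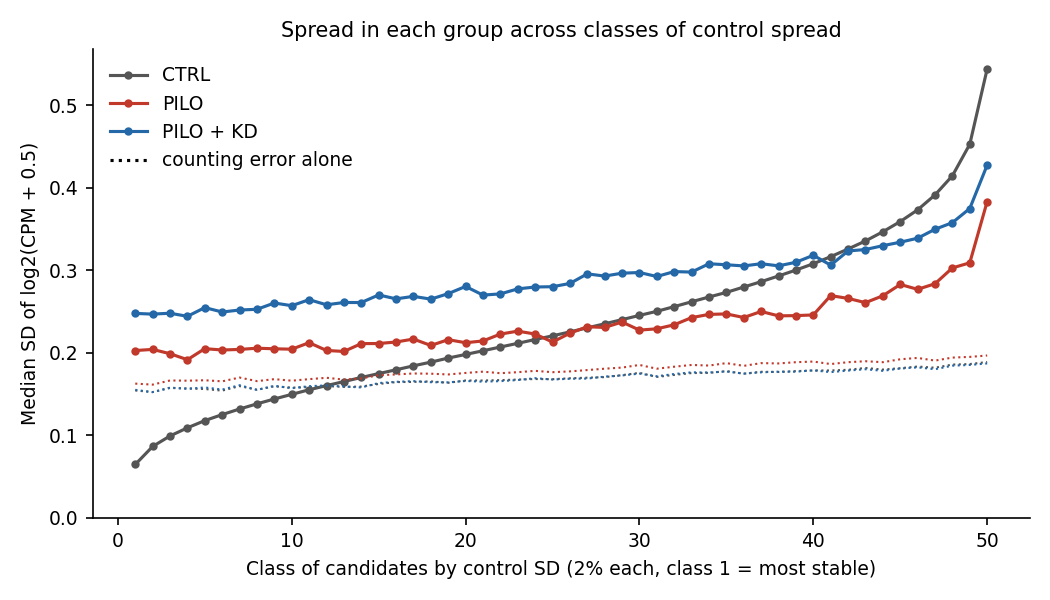
Median SD of log2(CPM + 0.5) in each group (solid lines, points) against 50 classes of candidates ordered by control SD, with the median counting error as dotted lines (CTRL and PILO + KD nearly coincide). The control line climbs from 0.0647 to 0.544 by construction, while PILO starts at 0.203 and stays near that level through the lowest classes.

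Control animals that took no part in a choice gave the size of regression to the mean within CTRL itself. Each control was left out in turn, regions were chosen again on the other 4, and the left-out animal's distance from their mean was read. Its median absolute distance was 0.158 to 0.168 log2 units at the chosen regions, against 0.170 to 0.212 over all candidates. The ratio averaged 0.854 over the 5 controls and ran from 0.769 to 0.991. Of the PILO animals read in the same way, PILO 3 had a mean distance of 0.139 at the chosen regions and PILO 4 of 0.201, with ratios to all candidates between 0.860 and 0.934 for the 4 animals. PILO + KD animals lay between 0.151 (PILO + KD 3) and 0.303 (PILO + KD 4), with ratios of 0.834 to 0.939. The distances of unused controls thus fell within the range of distances of epileptic animals in both groups. Counting error is part of these distances, and PILO 3 was the deepest library and PILO 4 the shallowest. Squared distances over their Poisson variance averaged 1.46 to 1.79 for the left-out controls. In PILO animals they averaged 1.28 to 2.57, and in PILO + KD animals 1.20 to 4.68.

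A left-out control lay within the range of the other 4 at 13.8 to 17.3 % of the chosen regions, against a mean of 60.0 % over all candidates. The animal means were 13.6 to 19.7 % in PILO and 7.17 to 17.0 % in PILO + KD. Of the regions chosen on 4 controls, 449 to 476 (43.7 to 46.3 %) were also among the 1027 chosen on all 5. More than 50 % of the list was therefore replaced when any 1 control was left out.

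**Figure D3:**
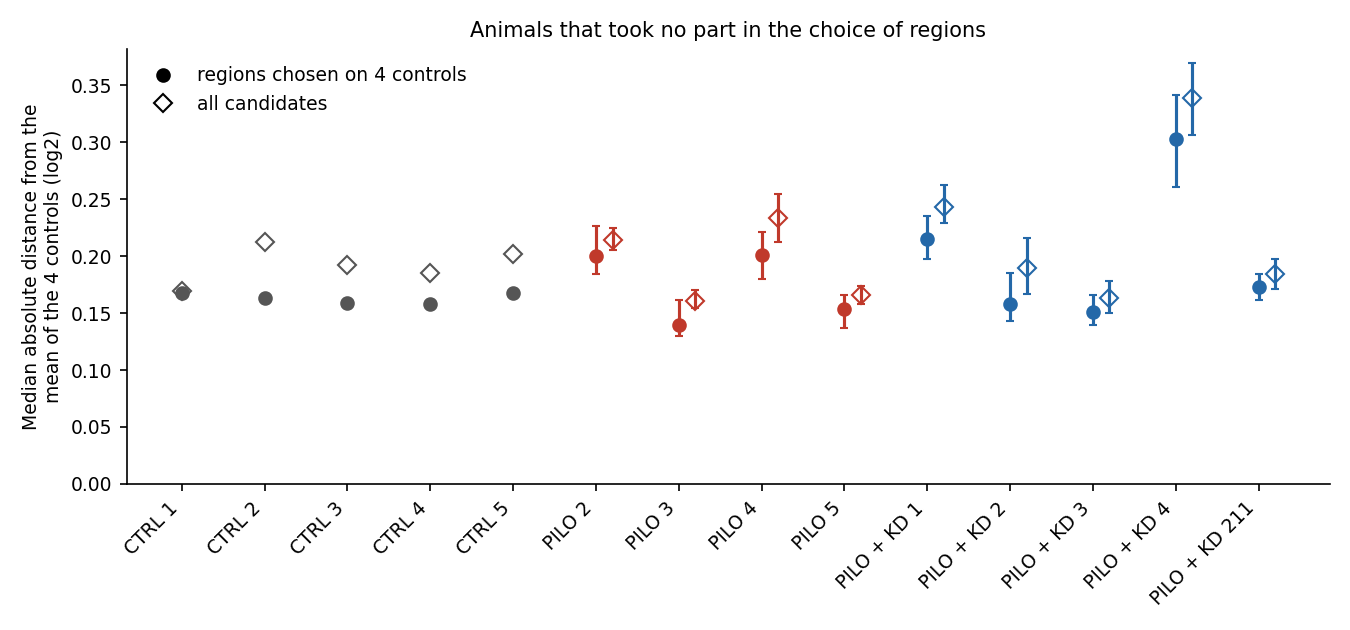
Median absolute distance (log2 units) of each animal from the mean of 4 controls, at regions chosen on those 4 (filled circles) and over all candidates (open diamonds). Each control was left out once, and for epileptic animals the point is the mean and the bar the range over the 5 choices. Left-out controls sit at 0.158 to 0.168, between PILO 3 at 0.139 and PILO + KD 4 at 0.303.

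Few regions were stable in more than 1 group. When the lowest 2 % of candidates were taken in each group by its own SD, 23 of the 1027 stable control regions (2.24 %) were also on the PILO list and 38 (3.70 %) on the PILO + KD list. The PILO and PILO + KD lists, for which controls were not used, shared 39 (3.80 %). Every list held 1027 regions, which is 2.00 % of candidates. Of the stable control regions, 12.7 % ranked in the lowest 10 % in PILO and 17.1 % in PILO + KD, and 5.16 % and 4.09 % in the highest 10 %. An SD as low as the control limit of 0.0774 was reached at 42 members in PILO (4.09 %, against 3.67 % of all candidates) and at 12 in PILO + KD (1.17 %, against 0.611 %).

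One region, chr4:124339021-124339845, was on all 3 lists and was singled out after its values were seen. It held 9.19, 8.84, 9.20, 8.08 and 9.08 CPM in CTRL, 8.56, 8.39, 8.03 and 8.50 CPM in PILO and 7.96, 8.43, 8.14, 7.06 and 7.72 CPM in PILO + KD. The 3 groups overlapped. Among the members, the lowest SD over all 14 animals was at chr3:101272505-101274075, a region of 1571 bp. It had 13.8 to 15.1 CPM in CTRL, 13.2 to 15.7 CPM in PILO and 13.6 to 14.9 CPM in PILO + KD. Its SD was 0.0645 log2 units, and its groups covered the same range. The next were chr6:101395867-101397030, at 0.0725, and chr15:35841778-35842791, at 0.0733. The most even member in PILO was chr5:42424274-42425010, with 10.9, 10.7, 10.9 and 10.9 CPM and an SD of 0.0116. In PILO + KD, the same region spread from 9.43 to 12.6 CPM. The most even member in PILO + KD was chr3:63659936-63660804, with 5.31, 5.32, 5.10, 5.35 and 5.44 CPM, and its PILO values spread from 4.19 to 5.71 CPM. Both were named after their values were seen.

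Spread in the epileptic groups rested unequally on single libraries. Without PILO 3 the median SD at the members was 0.174, against 0.217 at all candidates. Without PILO + KD 4 the PILO + KD value was 0.210 against 0.234, and without both PILO + KD 1 and PILO + KD 4 it was 0.186 against 0.206. Ratios to all candidates were then 0.803, 0.896 and 0.902. The mean variance index in PILO + KD without both PILO + KD 1 and PILO + KD 4 was 2.05 at the members, against 2.50 at all candidates. Among the 100 members with the highest SD in PILO, PILO 3 was the highest animal in 64, and the lowest was PILO 2 in 47 and PILO 4 in 34. Over all 1027 members, PILO 3 was the highest of its group in 30.3 % and the lowest in 31.4 %, PILO 2 the lowest in 30.4 % and PILO 4 in 22.9 %. Among the 100 with the highest SD in PILO + KD, the lowest animal was PILO + KD 1 in 40 and PILO + KD 4 in 38, and PILO + KD 3 was the highest in 37, where over all members these shares were 26.3, 24.9 and 20.4 %. These 2 sets of 100 had 25 regions in common. Both sets held few tags, with medians of 714 in PILO and 724 in PILO + KD, against 1075 over all members. Their median densities were 739 and 759 tags per kb, against 1037. Low counts raise counting error in both groups, and the overlap was not tested.

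The member with the highest SD in PILO was chr1:211734572-211735810 (1239 bp). It had 1.94, 6.38, 4.30 and 3.96 CPM in PILO 2, 3, 4 and 5, from 15, 79, 30 and 34 tags. Controls had 4.99 to 5.59 CPM there and PILO + KD animals 2.78 to 6.23 CPM. The SD was 0.619 in PILO, against a counting error of 0.211. PILO 3 alone was above the controls and the other 3 were below. Next came chr8:112771858-112772714, with 1.94, 4.92, 2.87 and 5.59 CPM in PILO, where PILO 5 alone was above the controls (4.38 to 5.10 CPM). At chr7:140303158-140303902 PILO had 1.94, 5.89, 4.73 and 4.66 CPM, and 3 of the 4 animals were above the controls (3.85 to 4.36 CPM). PILO 2 was the lowest animal of its group at all 3.

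In PILO + KD the member with the highest SD was chr2:237234359-237235214, with 3.74, 4.52, 3.69, 2.83 and 0.989 CPM in animals 1, 2, 3, 4 and 211. The last value came from 10 tags. Controls held 4.38 to 5.02 CPM, and 1 of the 5 PILO + KD animals lay within that range. At chr2:251420691-251421916, PILO + KD 1 was instead the highest, with 11.7 CPM against 3.53 to 6.29 CPM in the other 4. At chr16:71277605-71278861, PILO + KD 1 was the lowest with 2.65 CPM, PILO + KD 3 the highest with 8.14 CPM, and PILO ranged from 3.76 to 9.68 CPM, so that both epileptic groups were wide around controls of 6.63 to 7.31 CPM.

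The SD was lower at regions with a high tag density, the tags per kb over all animals. In the 257 sparsest members (up to 791 tags per kb) the median SD was 0.253 in PILO and 0.289 in PILO + KD. In the 257 densest (from 1328 tags per kb) it was 0.190 and 0.213. Relative to counting error the classes differed less, with a mean variance index of 2.35 at the sparsest and 2.07 at the densest members in PILO and of 2.90 and 2.79 in PILO + KD. The median deviation from the mean of 14 animals also moved with density, in opposite directions in different animals of 1 group. In PILO 2 it was -0.17 in the sparse and 0.09 in the dense members, and in PILO 3 it was 0.15 and -0.14. In PILO + KD 1 it was -0.22 and 0.06 and in PILO + KD 4 -0.18 and 0.15, whereas PILO + KD 3 had 0.10 and -0.07. PILO 5 stayed close to 0 in both. The controls were alike, as the choice of regions requires, with 0.06 to 0.07 at the sparse members. They enter the mean of 14 animals, so the deviations of the other animals depend in part on the choice.

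Single animals thus deviated over many members together. Across members, the rank correlation of an animal's deviation with tag density was 0.40 in PILO 2, -0.50 in PILO 3, 0.40 in PILO + KD 1 and 0.27 in PILO + KD 4. Over all candidates it was 0.34, -0.41, 0.40 and -0.03. The other epileptic animals had -0.29 to 0.15 across members and -0.16 to -0.004 over all candidates. The 5 controls had -0.37 to -0.23 across members, where the choice of regions makes them alike. Over all candidates CTRL 1 to 5 had -0.32, 0.11, 0.24, -0.13 and -0.22, so opposite directions occurred among controls too. Tag density enters both sides of these correlations, and no test was made. When each animal was centred on the candidates' median within 20 density classes, and regions were chosen again on the controls, 383 (37.3 %) of the 1027 stayed on the list. The median SD was then 0.187 in PILO against 0.221 at all candidates, and 0.231 in PILO + KD against 0.280. Ratios of 0.846 and 0.824 were close to those without centring. The source of these trends was not tested.

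**Figure D4:**
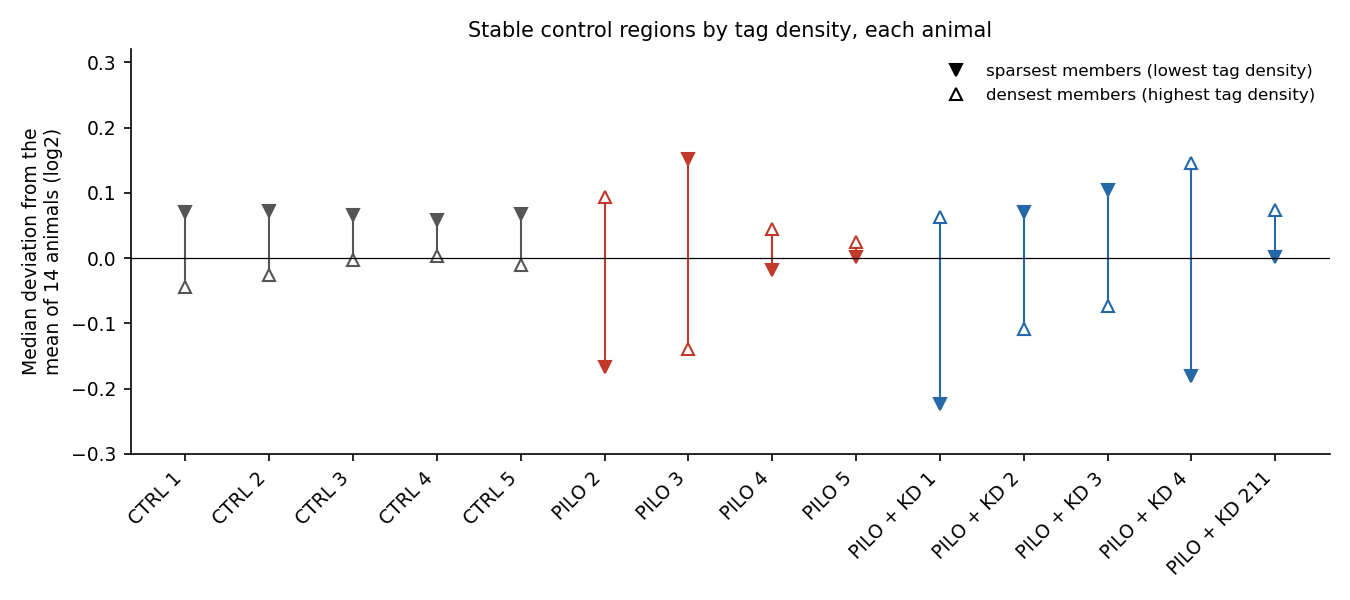
Median deviation of each animal from the mean of all 14 (log2 units) at the 257 stable control regions with the lowest tag density (filled, pointing down) and the 257 with the highest (open, pointing up). PILO 2, PILO + KD 1 and PILO + KD 4 were low at sparse regions, at -0.17, -0.22 and -0.18, and PILO 3 was the reverse at 0.15. The 5 controls ran together, as the choice of regions requires.

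The median level of methylated DNA at the stable control regions differed little between the 3 groups. The median difference of group means was -0.03 log2 units for PILO minus CTRL, against -0.03 at the other candidates, and -0.04 for PILO + KD minus CTRL, against -0.03. For PILO + KD minus PILO it was 0.00609, against 0.00304. In PILO, 426 regions were higher and 601 (58.5 %) lower than in CTRL, where 56.5 % of other candidates were lower. In PILO + KD, 404 were higher and 623 (60.7 %) lower than in CTRL, against 57.2 %. Compared with PILO, 532 were higher in PILO + KD and 495 lower. The medians depended on scaling, and the counts on scaling together with how the change was estimated. By the log2 fold change of edgeR, a model of counts, with trimmed-mean scaling, 492 (47.9 %) of the same 1027 regions were higher in PILO than in CTRL. In PILO + KD 534 (52.0 %) were higher, a majority, where 53.9 % of other candidates were higher. These fold changes are not differences of mean log2(CPM + 0.5), so scaling and estimate changed together here. Their parts in the turned majority were not tested. With regions chosen again under trimmed-mean scaling, the median difference of means for PILO + KD minus CTRL was 0.01. At all candidates it was 0.03 under that scaling.

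Shifts were small one by one. A difference above 0.5 log2 units was found at 11 members in PILO versus CTRL (1 higher and 10 lower, 1.07 %), against 1.93 % of other candidates. In PILO + KD versus CTRL there were 6, all lower (0.584 %, against 1.05 %), and between PILO + KD and PILO 3 (0.292 %, against 0.634 %). Density again separated them. At the 257 sparsest members the median shift was -0.09 for PILO and -0.11 for PILO + KD relative to CTRL, and at the 257 densest it was 0.02 and 0.03. After centring on density classes, with the list kept, the sparsest stood at -0.05 and -0.04 and the densest at 0.05 and 0.03.

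Groups that do not overlap were common in comparisons with the controls that chose the list, since a narrow control range leaves little room for overlap. All 4 PILO animals lay beyond all 5 controls at 97 members (9.44 %), where 1.92 % of all regions tested and 1.82 % of candidates did so. Of these members, 24 were higher and 73 lower, and of all regions tested 0.956 % were higher and 0.967 % lower. Among candidates, which hold the members, lower regions were likewise more frequent, with 294 higher and 641 lower. In PILO + KD this held for 37 members (3.60 %), where 0.685 % of all tested regions and 0.492 % of candidates did so, with 5 higher and 32 lower against 0.245 % and 0.44 % of all regions tested, and against 55 and 198 candidates. Between PILO + KD and PILO, which were not used by the choice, 3 members (0.292 %) did not overlap, against 0.636 % of all tested regions and 0.348 % of candidates.

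Tag counts were tested with edgeR's quasi-likelihood test on the 155092 regions whose summed tags reached 129. In PILO versus CTRL, 8 members (0.779 %) had an unadjusted p below 0.01, against 1.19 % of all regions tested and 0.87 % of candidates. In PILO + KD versus CTRL there were 6 (0.584 %), against 0.92 % and 0.605 %. The control spread that chose the regions enters both tests, which also share the 5 controls, so both counts are descriptions only. In PILO + KD versus PILO, fitted on those 9 animals alone, 2 members had a p below 0.01 (0.195 %), against 0.326 % of all regions tested and 0.195 % of candidates. The share at the stable regions equalled that of the candidates in this fit. Under other settings 2 members were again below 0.01 while the candidates' share was higher. That share was 0.609 % with the replicate number as a block (PILO + KD 211 left out) and 0.578 % with flow cell FC101 only. It was 0.424 % with flow cell as a covariate and 0.409 % without PILO + KD 4. The members' count rested on few animals: 0 members were below 0.01 by edgeR without PILO 2, PILO 4, PILO + KD 3 or PILO + KD 211, and 1 without PILO 3 or PILO + KD 2.

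After Benjamini-Hochberg adjustment over all regions tested, 0 members passed 0.05 by edgeR in any of the 3 comparisons, and the lowest adjusted p were 0.432, 0.872 and 1.00. Unadjusted p below 0.05 was reached by 50, 41 and 6 members (4.87, 3.99 and 0.584 %), against 5.13, 4.22 and 1.97 % of all regions tested and 4.11, 2.83 and 0.981 % of candidates. By limma-voom and by DESeq2's Wald test adjusted calls were likewise 0 among members. Below 0.05 unadjusted, limma-voom had 50, 41 and 6 members, where 5.06, 4.21 and 2.15 % of all regions passed. DESeq2 had 40, 30 and 3 members (3.89, 2.92 and 0.292 %), where 4.33, 3.47 and 1.33 % of all regions passed. The median standard error of a log2 fold change in edgeR was 0.174 at members and 0.199 at candidates for PILO versus CTRL. The control spread that chose the members enters this error, and members also held more tags, so a lower value is no result. For PILO + KD versus PILO, fitted without controls, it was 0.197 and 0.212.

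Among the members, the largest rise in PILO was at chr1:155388450-155389443 (994 bp). Controls had 4.36, 4.37, 4.01, 4.04 and 4.38 CPM, PILO animals 7.00, 8.31, 7.03 and 6.05 CPM, and PILO + KD animals 4.59, 5.82, 5.10, 4.04 and 3.96 CPM. PILO lay above both other groups without overlap, whereas PILO + KD and CTRL overlapped. The log2 fold change in PILO versus CTRL was 0.76 ± 0.18 (SE) by edgeR, with an adjusted p of 0.432, the lowest of all members. In PILO + KD versus PILO it was -0.59 ± 0.20, where edgeR's p was 0.00629 and became 1.00 on adjustment. An exact permutation test over the 9 animals gave a two-sided p of 0.0159, the smallest that splits of 4 and 5 animals allow. The region was named for its high PILO values, which both comparisons share, and for its low p in the second. Neither the second comparison nor its permutation p is therefore separate evidence of a return to control levels.

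The next largest rises were smaller. At chr16:79481011-79483005, PILO had 7.52, 10.7, 12.6 and 8.03 CPM and controls 6.61 to 7.38 CPM (0.48 ± 0.17, adjusted p = 0.823 by edgeR). At chr6:73219392-73220797, PILO had 6.87, 7.99, 7.60 and 7.68 CPM and controls 5.30 to 5.90 CPM (0.44 ± 0.17, adjusted p = 0.863 by edgeR). In both, no PILO animal overlapped the controls, and PILO + KD animals lay across both groups, at 6.76 to 9.63 and 4.54 to 7.49 CPM.

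The largest fall in PILO among the members was at chr17:96651201-96651854 (654 bp). Controls had 4.92, 4.78, 4.72, 4.87 and 4.90 CPM there and PILO animals 1.43, 4.03, 3.73 and 2.10 CPM. PILO + KD animals held 3.26, 2.51, 5.21, 3.23 and 3.96 CPM. Every PILO animal was below the controls, and PILO + KD animals lay on both sides of the lowest control. The edgeR log2 fold change was -0.75 ± 0.24 with an adjusted p of 0.789. At chr9:22089336-22090256 PILO had 6.35, 4.68, 3.30 and 7.10 CPM and controls 7.67 to 8.61 CPM (-0.57 ± 0.20, adjusted p = 0.831 by edgeR).

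A single member was among the strongest falls of the members in both epileptic groups. At chr5:161864981-161866815 (1835 bp) controls had 9.09, 8.84, 9.67, 9.87 and 9.29 CPM, PILO animals 3.63, 8.47, 6.74 and 5.94 CPM, and PILO + KD animals 2.78, 7.22, 5.53, 7.37 and 5.24 CPM. All 9 epileptic animals were below all controls. The log2 fold change versus CTRL was -0.57 ± 0.21 in PILO and -0.70 ± 0.20 in PILO + KD, with adjusted p of 0.831 and 0.872 by edgeR. The lowest animals were PILO 2 and PILO + KD 1. This region was sparse (938 tags over 1835 bp), and PILO 2, PILO + KD 1 and PILO + KD 4 were low at sparse members in general. PILO + KD 4 had the highest PILO + KD value here. The cause of the fall was not tested. At chr8:109468127-109469369 PILO + KD animals had 1.69, 4.21, 5.21, 3.94 and 4.65 CPM against 6.02 to 6.86 CPM in controls (-0.66 ± 0.21, adjusted p = 1.00 by edgeR), without overlap, and again PILO + KD 1 was lowest.

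Rises in PILO + KD were smaller. At chr1:85388774-85389775 PILO + KD animals had 7.48, 3.91, 4.77, 5.25 and 7.22 CPM and controls 4.07 to 4.68 CPM, and the groups overlapped (0.43 ± 0.22, adjusted p = 1.00 by edgeR). At chr9:54641281-54642191 they had 17.6, 13.0, 9.98, 12.7 and 15.3 CPM against 10.4 to 10.9 CPM, again with overlap (0.40 ± 0.17, adjusted p = 1.00 by edgeR).

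**Figure D5:**
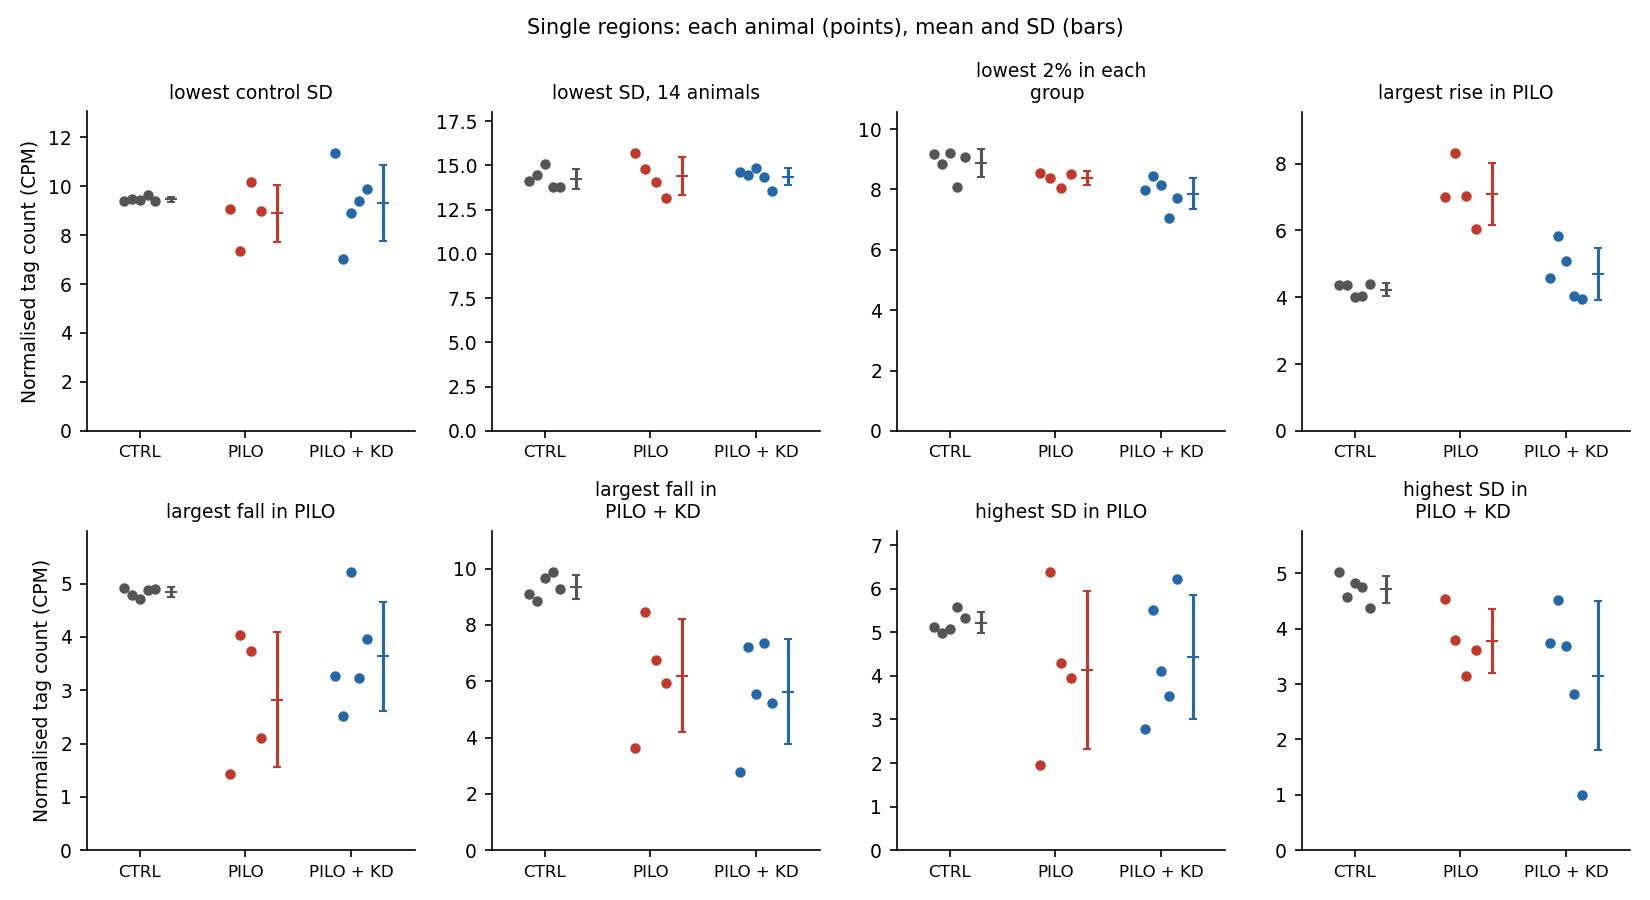
Normalised tag counts (CPM) in each animal (points, left to right in label order) with the group mean and SD (bars), at 8 named regions, for CTRL (n = 5), PILO (n = 4) and PILO + KD (n = 5), on axes that start at 0. The control points are tight because control spread chose the regions, and the PILO points of the largest rise, from 6.05 to 8.31 CPM, lie above every other animal there.

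For PILO + KD versus PILO, the other member that edgeR put under 0.01 was chr9:104470524-104471533, with 2.33, 4.28, 2.15 and 5.24 CPM in PILO and 4.59, 6.02, 5.64, 5.35 and 6.43 CPM in PILO + KD. PILO 5 overlapped the PILO + KD animals. The log2 fold change was 0.67 ± 0.24 (p = 0.00852 by edgeR before adjustment and 1.00 after it, exact permutation p = 0.0317), and controls at 4.78 to 5.35 CPM lay within the PILO + KD range. Because a low p in this same comparison named the region, its permutation p is no separate evidence. The next, chr1:85183611-85184597, had 5.83, 8.88, 9.47 and 7.33 CPM in PILO and 4.59, 7.12, 5.43, 4.14 and 6.83 CPM in PILO + KD (-0.47 ± 0.21, unadjusted p = 0.0287, adjusted p = 1.00 by edgeR).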

How the data were processed

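Methylated DNA was captured and sequenced from the hippocampus of 14 rats. The deposited counts are raw tags per region, which the authors made by aligning 36 bp reads to RN4 with BWA, removing duplicates, comparing all pairs of samples with MACS (version 1.4.0) and merging differing regions with bedtools. Gene content and sequence of the regions were not used here. Groups came from the sample labels.

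Regions and lists were chosen with earlier results of these data known. SDs were taken on log2(CPM + 0.5) (Python 3.11.15, pandas 2.3.3, scipy 1.17.1), and counting error assumed Poisson tags, so it covers counting only. Group tests used edgeR 4.0.16 (R 4.3.3) with trimmed-mean scaling and the filter at the 50th centile of summed tags, after a check on simulated data. DESeq2 1.42.0, limma 3.58.1, other scalings, added values, tag limits and left-out animals were alternatives. Regions named were those with extreme control SD, SD in either epileptic group, SD over all animals, or shift, those at the selection limit, and those with the lowest p for PILO + KD versus PILO.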

Additional observations from a re-analysis of the deposited data

Results flagged for a closer look

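Dixon's gap test for a single far value was applied to 89 groups of 4 or 5 animals, and 2 passed its 95 % limit, where chance alone gives about 5 % of groups. At chr5:42424274-42425010, PILO + KD 2 had 9.43 CPM, away from the other PILO + KD animals at 11.8 to 12.6 CPM. The median log2(CPM + 0.5) over all stable control regions was 3.18 in CTRL 4, away from the other controls at 3.14 to 3.15.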

How the results depend on the processing

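The ratio of the median SD at the members to that at all candidates was below 1 under the 19 alternatives that changed the value in PILO (0.803 to 0.952) and the 20 that changed it in PILO + KD (0.815 to 0.927), with regions chosen again where scaling or limits changed. The SD itself moved in PILO with 2 added to CPM (0.175), with tag sums below 1000 (0.230, an alternative chosen after seeing the data) and over left-out animals (0.174 to 0.218), and in PILO + KD when only flow cell FC101 was used (0.112, from 2 animals). Density centring and leaving out PILO + KD 1 and 4 together were also chosen after seeing the data. The median shift in PILO + KD versus CTRL was 0.0133 with trimmed-mean scaling, -0.0109 with DESeq2 size factors, -0.0191 with tag sums of 1000 to 2000, -0.0722 with tag sums below 1000 and -0.00895 after density centring, so its direction is not settled; the cause was not tested. The lists shared 698 regions (68.0 %) under trimmed-mean scaling, 731 (71.2 %) under DESeq2 size factors and 754 (73.4 %) when ranked by the variance index.

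Members with p below 0.01 numbered 4 with FC101 only in PILO versus CTRL (0.389 %, against 1.41 % of all regions tested). In PILO + KD versus CTRL they numbered 2 with FC101 only (0.195 %, against 0.612 %) and 3 by DESeq2 (0.292 %, against 0.785 %). Between PILO + KD and PILO they numbered 1 with scaling by total tags and 1 by DESeq2 (0.0974 %, against 0.251 and 0.210 %). With an adjusted p below 0.05 by edgeR there were 0 in each. Leaving out 1 animal gave 2 to 16, 3 to 13 and 0 to 2 members, while 0.932 to 1.43 %, 0.634 to 1.09 % and 0.26 to 0.589 % of all regions tested passed. In PILO versus CTRL, the 5 controls left out in turn gave 4, 5, 2, 5 and 4, PILO 2 to 5 gave 4, 16, 2 and 5, and leaving out PILO + KD 4 gave 13. The 16 members without PILO 3 were 1.56 %, against 1.43 % of all regions and 1.18 % of candidates, and the 13 without PILO + KD 4 were 1.27 %, against 1.34 and 1.07 %. In PILO + KD versus CTRL, leaving out CTRL 2, 3 or 5 gave 3 each, PILO + KD 2 gave 11 (1.07 %, against 1.09 % of all regions) and PILO + KD 3 gave 13 (1.27 %, against 0.990 %).

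With the replicate number as a block, a fit that left out PILO + KD 211, p below 0.01 was reached by 10, 5 and 2 members in the 3 comparisons (against 1.28, 0.613 and 0.686 % of all regions). Without that animal and without a block there were 7, 4 and 0 (against 1.16, 0.814 and 0.317 %). Whether the numbers pair the animals was not settled. Correlations of deviations between same-numbered animals ran from -0.286 to 0.283, and those of other pairs from -0.350 to 0.384. Not every animal correlated best with its own number. Between PILO and PILO + KD the mean was 0.127 for 3 same-numbered pairs and -0.0211 for the others. The means were 0.0101 and -0.00196 between CTRL and PILO, and -0.00798 and 0.00217 between CTRL and PILO + KD. With 28 to 178 tags per member and control animal, spreads below the counting error cannot be resolved.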
